A study of Rattus norvegicus with 9 samples.

Results

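Fragments of the nuclear histidine tRNA with the anticodon GTG (tRNA-His-GTG) were examined in pancreatic islets of 22-day-old Sprague Dawley rats. All rows of the deposited table of changed tRNA-derived fragments (tRFs) whose host was tRNA-His-GTG were taken, which gave 14 tRFs of the 192 distinct tRFs in the table. Each of them was listed once and with no other host. The mothers had received a chow diet (CD, 16.8% protein) or a low-protein diet (LP, 5.3% protein) during gestation and lactation, and small RNA was sequenced from islets of 5 CD-exposed and 4 LP-exposed rats, described by the study as males. Offspring of LP-fed mothers are prone to diabetes, and the comparison addresses how this exposure alters the tRFs of their islets. In both groups, RNA was treated before library construction to free blocked ends and to remove base methylations, N1-methyladenosine (m1A) among them. The table holds only tRFs that the authors called as changed between these same libraries, so the differences between CD and LP given here describe sizes and are not independent evidence of a change.

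Histidine tRNAs stand apart from other tRNAs by an additional G before the first base pair of the acceptor stem. In animals this base is added after transcription by the enzyme THG1L, and the histidyl-tRNA synthetase reads it. The first anticodon base of cytosolic tRNA-His is a site of the modified base queuosine, which mammals make from a dietary or microbial precursor. Stress-activated nucleases such as angiogenin cut tRNAs in the anticodon loop, which leaves fragments that begin at the tRNA's 5' end and fragments that reach its 3' end. The letters CCA at that 3' end are not encoded in animal tRNA genes and are added to every tRNA, where the last A takes up the amino acid.

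The 14 tRFs were 2 fragments that start at the 5' end of the tRNA and 12 fragments of its 3' part. Each name gives the part and the number of nucleotides (nt), and a letter tells apart fragments of equal part and length. The sequences below are those on which the comparison turns, both 5' fragments, the most abundant 3' fragment and its copy without the last A, the longest 3' fragment, and the short 3' fragments, written as DNA as in the deposited table. Capitals mark the bases of the anticodon loop and of the CCA end that each fragment holds.
5'-31: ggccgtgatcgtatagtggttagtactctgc
5'-35: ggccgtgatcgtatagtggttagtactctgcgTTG
3'-53c: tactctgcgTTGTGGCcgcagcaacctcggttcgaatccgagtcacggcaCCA
3'-52b: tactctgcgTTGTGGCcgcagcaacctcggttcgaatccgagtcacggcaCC
3'-55: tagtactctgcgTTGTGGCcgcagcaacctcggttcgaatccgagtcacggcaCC
3'-31: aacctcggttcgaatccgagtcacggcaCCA
3'-30: acctcggttcgaatccgagtcacggcaCCA

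The longest 5' fragment and the long 3' fragments overlapped, and together they spelled a tRNA of 76 bases in which each of the 14 sequences occurred once. Positions are counted from the first base of the 5' fragments. Base 1 was a G that lay before the acceptor stem, whose strands were found at bases 2 to 8 and 66 to 72, so the sequences carry the mark of a histidine tRNA that their label gives. Both 5' fragments began with this G. No genome was used here, and RefSeq lists 10 rat genes named Trnah-gug (assembly GRCr8), so the fragments cannot be assigned to one gene.

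The 5' fragments ended near the anticodon. 5'-31 ended at base 31, inside the anticodon stem (bases 28 to 32), and 5'-35 ended at base 35, the first base of the anticodon (bases 35 to 37). None of the 3' fragments in the table began at base 32 or 36, the bases that follow these ends. Instead, 10 of the 12 started further upstream, between base 21 and base 29, from the D loop to the beginning of the anticodon stem, and ran through the whole anticodon loop to the CCA end. These long 3' fragments measured 48 to 55 nt, and each overlapped 5'-35. The other 3' fragments, 3'-31 and 3'-30, started at bases 46 and 47, in the variable region before the T arm. All 12 fragments of the 3' part contained base 58, the m1A site of the T loop, and neither 5' fragment did. A complete CCA was present in 7 of the 12, while 4 ended in CC and 1 in C.

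**Figure D1:**
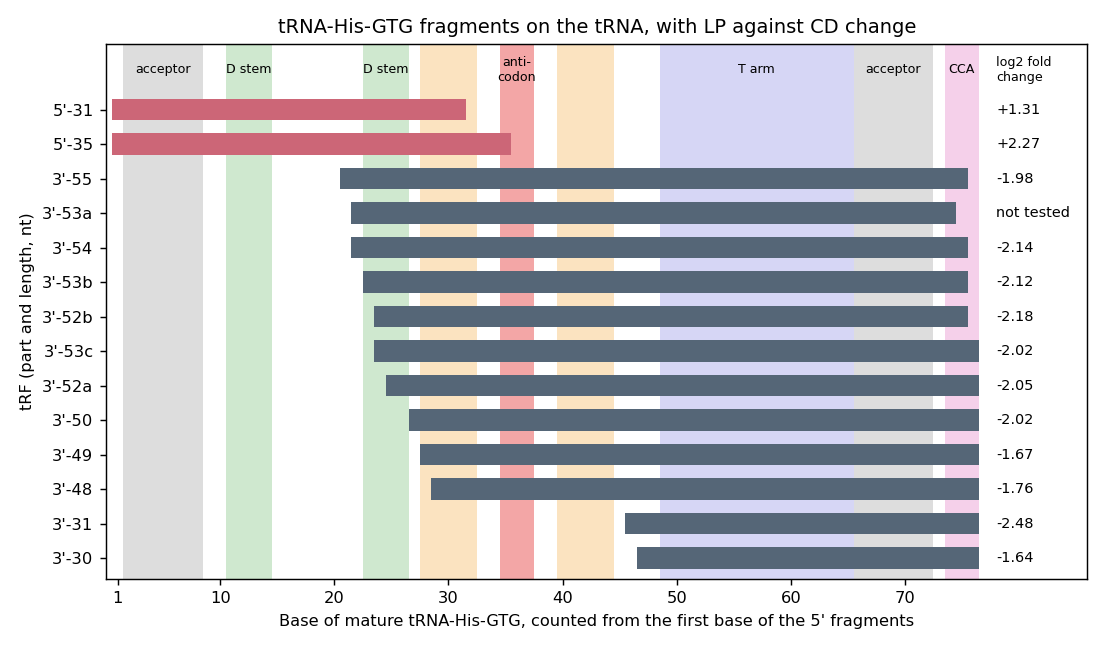
Map of the 14 tRNA-His-GTG fragments on the 76 bases of the tRNA spelled by the fragments themselves, with shaded acceptor, D, anticodon and T arms and the CCA end, and the log2 fold change of LP against CD (edgeR) at the right. Both 5' fragments (red) were higher in LP and every fragment of the 3' part that was tested (grey) was lower. 3'-53a did not pass the filter on low counts.

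Both 5' fragments were more abundant in LP islets. Levels are given as normalized read counts, for which each deposited count was divided by its library's size factor as used by the authors. 5'-31 had 32.0, 18.7, 21.6, 28.1 and 27.9 normalized read counts in CD 1 to CD 5 and 60.3, 61.8, 51.6 and 80.1 in LP 1 to LP 4. Each LP library lay above each CD library, and the spread within both groups was small. The means were 25.7 ± 5.38 (SD, n = 5) and 63.5 ± 11.97 (SD, n = 4), a log2 fold change of 1.31 ± 0.37 (SE, edgeR adjusted p = 0.00507). These levels rested on 17 to 27 raw counts per CD library and 44 to 144 per LP library.

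5'-35, which reaches into the anticodon, showed the larger estimate. It had 14.4, 8.81, 14.1, 31.3 and 25.8 normalized read counts in CD 1 to CD 5 and 50.7, 59.8, 66.8 and 189 in LP 1 to LP 4. Again the groups did not overlap, but LP 4 stood well above the other LP libraries. The means were 18.9 ± 9.30 and 91.5 ± 65.1, and the log2 fold change was 2.27 ± 0.52 (SE, edgeR adjusted p = 0.00292), which became 1.64 without LP 4. The difference between the changes of the 5' fragments was not tested. Within the pair, 5'-35 made up 31.0% to 52.7% of the raw counts in the CD libraries and 45.7% to 70.2% in the LP libraries, so the groups overlapped. The highest share, in LP 4, had a 95% confidence interval of 66.0% to 74.1% (Wilson). Intervals given here cover counting error only, as amplified reads are not independent molecules.

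The most abundant fragment of the tRNA was 3'-53c, which starts at base 24 in the D stem and carries a complete CCA. It had 1690, 614, 751, 756 and 710 normalized read counts in CD 1 to CD 5 and 24.7, 470, 144 and 251 in LP 1 to LP 4. Every LP library lay below every CD library, with CD 1 far above the other CD libraries and LP 1 far below the other LP libraries. The means were 904 ± 443 (SD, n = 5) and 223 ± 189 (SD, n = 4), a log2 fold change of -2.02 ± 0.65 (SE, edgeR adjusted p = 0.00793). It was -1.65 without LP 1, -1.67 without CD 1 and -2.68 without LP 2.

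The other long 3' fragments were less abundant, and those tested went the same way. Their CD means ranged from 11.6 normalized read counts for 3'-53a to 124 for 3'-48, and their LP means from 2.10 to 36.3 for the same tRFs. Of the 10 long fragments, 9 passed the filter on low counts, with log2 fold changes of -2.18 (3'-52b) to -1.67 (3'-49). 3'-53a, with 1 to 18 raw counts per library, was not tested. 3'-52b is the same fragment as 3'-53c without the last A. It had 28.8, 18.7, 19.1, 34.5 and 16.5 normalized read counts in CD 1 to CD 5 and 2.74, 2.99, 6.19 and 7.23 in LP 1 to LP 4, so that the groups were again separate, and its log2 fold change was -2.18 ± 0.42 (SE, edgeR adjusted p = 0.00178). LP 1 held as few as 1 or 2 raw counts for 3'-52a, 3'-52b, 3'-53a, 3'-53b, 3'-54 and 3'-55. The change of 3'-48 was -1.76, and -2.39 without LP 2.

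The short 3' fragments covered little more than the T arm and the 3' strand of the acceptor stem. 3'-30 had 104, 105, 87.3, 44.2 and 50.6 normalized read counts in CD 1 to CD 5 and 12.3, 22.9, 19.3 and 43.9 in LP 1 to LP 4. LP 4 came within less than 1 normalized read count of CD 4, without overlap, and the log2 fold change was -1.64 ± 0.48 (SE, edgeR adjusted p = 0.00521). 3'-31, longer by a single A at its start, had 73.6, 93.6, 31.6, 14.0 and 17.6 in CD and 5.48, 4.98, 3.44 and 17.2 in LP. It was the only one of the 14 tRFs in which the groups overlapped, because LP 4 exceeded CD 4. Its log2 fold change of -2.48 ± 0.68 (SE, edgeR adjusted p = 0.00473) was -3.30 without LP 4.

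**Figure D2:**
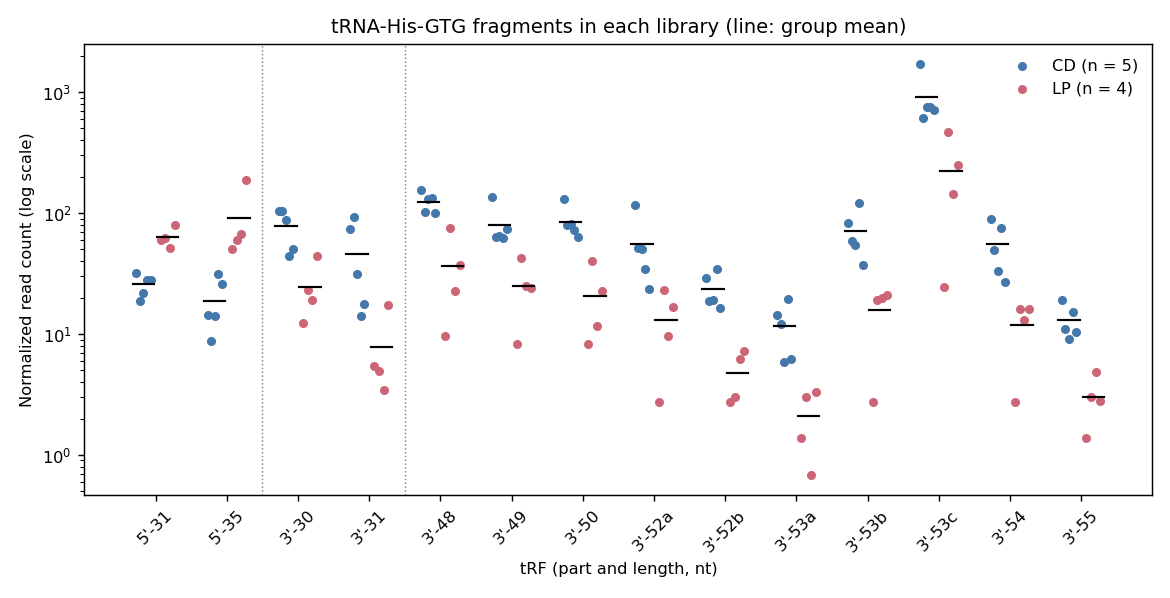
Normalized read counts (log scale) of each tRNA-His-GTG fragment in the 5 CD (blue) and 4 LP (red) libraries, with a line at the group mean. Dotted lines part the 5' fragments, the short 3' fragments and the long 3' fragments. LP lies above CD in both 5' fragments and below CD in the 3' part, with overlap in 3'-31 only.

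Summed over each part, the 5' end was higher and the 3' part lower in every LP library than in every CD library. The 5' fragments together came to 46.4, 27.5, 35.7, 59.3 and 53.7 normalized read counts in CD 1 to CD 5 and to 111.0, 122, 118 and 269 in LP 1 to LP 4, with means of 44.5 ± 13.0 and 155 ± 76.0. The 3' part came to 2639, 1258, 1319, 1383 and 1136 in CD and to 82.2, 724, 280.1 and 464 in LP, with means of 1547 ± 617 and 387 ± 273. On the log2 scale the mean of LP exceeded that of CD by 1.75 for the 5' end, and it was -2.31 relative to CD for the 3' part. The value for the 3' part was -1.69 without LP 1. These sums were given no test, since their members had been selected on the same libraries.

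The ratio of the parts within a library does not depend on how libraries are scaled. The 5' fragments made up 1.73%, 2.14%, 2.64%, 4.11% and 4.51% of the raw counts of tRNA-His-GTG in CD 1 to CD 5, and 57.4%, 14.4%, 29.7% and 36.7% in LP 1 to LP 4. The 95% confidence intervals (Wilson) reached up to 5.87% in CD 5 and down to 12.2% in LP 2. LP 1 was the single library in which 5' fragments outnumbered those of the 3' part, with 81 against 60 raw counts, and it had the lowest sum of counts over the table, 12556, while its size factor (0.730) was above that of CD 1 (0.625). The log2 of the ratio of 5' to 3' counts was -5.10 in CD (± 0.61 SD, n = 5) and -1.04 in LP (± 1.24 SD, n = 4), with a difference of 4.06 that ranged from 3.56 to 4.57 when single libraries were left out. Because tRFs entered the table only when they differed between these libraries, and the members of the 2 parts differed in opposite directions, the separation of the groups in this ratio is no further evidence of a change.

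**Figure D3:**
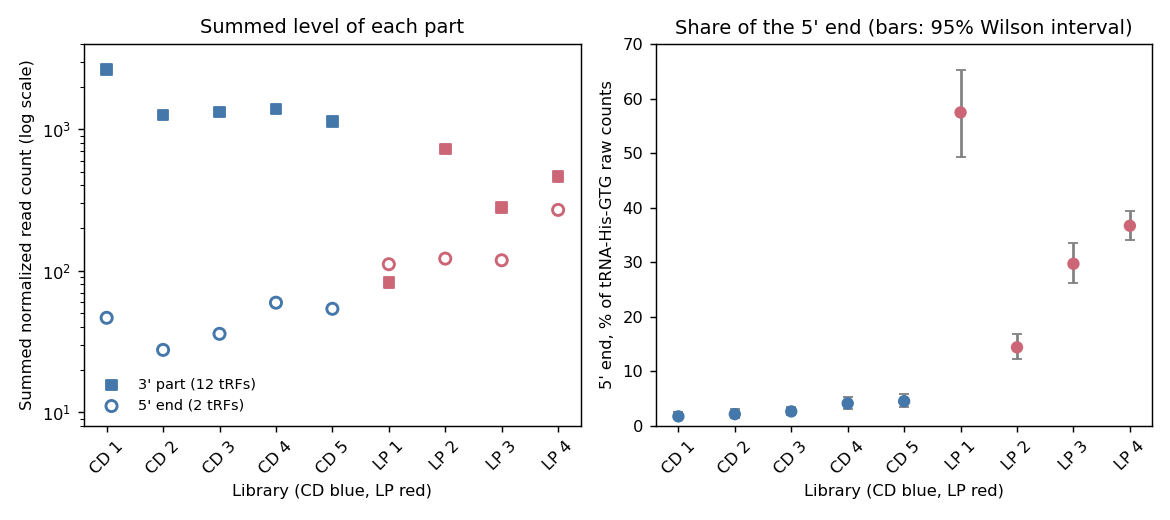
Left, summed normalized read counts (log scale) of the 2 fragments of the 5' end (open circles) and the 12 fragments of the 3' part (squares) in each CD (blue) and LP (red) library. Right, the share of the 5' end in the raw counts of tRNA-His-GTG, with 95% Wilson intervals, which is 1.73% to 4.51% in CD and 14.4% to 57.4% in LP.

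With edgeR's quasi-likelihood test, past 2-fold and an adjusted p of 0.05, both 5' fragments were called higher and all 11 tested fragments of the 3' part lower. Nearly every tRF of this preselected table passed, with 97.8% of the 181 tested called, 41.4% as higher and 56.4% as lower, so the number of calls among the 14 says nothing particular about tRNA-His-GTG. The groups did not overlap for 13 of the 14, with 2 above and 11 below CD, and for 76.6% of the 192 (28.6% above, 47.9% below). Both rises were called under each scaling, with sizes that varied, while the calls of the falls depended on it in part. When libraries were scaled by TMM over the table, both 5' fragments and 7 of 11 fragments of the 3' part were called, against 72.9% of all tRFs tested (42.0% higher, 30.9% lower). With the summed counts as library size these were 2 and 3 of 11, against 56.4% (42.0% higher, 14.4% lower). DESeq2 with its own size factors called 2 and 9 of 12, against 71.4% (39.6% higher, 31.8% lower). 3'-53c itself missed the threshold under TMM (log2 fold change -1.33, edgeR adjusted p = 0.0509) and with summed counts (-1.03, edgeR adjusted p = 0.109). The log2 fold change of 5'-31 was 2.01 with TMM, 2.19 with summed counts and 2.11 with DESeq2, and that of 5'-35 was 2.92, 3.06 and 2.97. No member changed direction. Each of these scalings moved all tRFs together, with a median log2 fold change over those tested of -1.49 with the authors' size factors, -0.69 with TMM, -0.48 with summed counts and -0.72 with DESeq2. The median of the 3' part was below it each time, at -2.02, -1.34, -1.10 and -1.26. This says nothing particular about the 3' part, since the median over those tested pools rises and falls. Over the table, the calls were 75 higher and 102 lower with the authors' size factors, 76 and 56 with TMM, 76 and 26 with summed counts, and 76 and 61 with DESeq2.

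The long 3' fragments were dominated by a single start, and the share of each start overlapped between the groups. Fragments that start at base 24, 3'-53c and 3'-52b, made up 59.7% to 69.8% of their raw counts in the CD libraries and 42.6% to 68.1% in the LP libraries. Over all libraries, the next were the start at base 29 with 9.32%, and the starts at bases 27 and 28 with 5.99% and 5.95%. Starts at bases 21, 22 and 23 added 0.907%, 4.53% and 5.04%. No fragment in the table started at base 26.

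Among the fragments listed, the tail went with the start. The 5 with an incomplete CCA all started at bases 21 to 24. None of those that started at base 25 or later lacked its last A. No tRF in the table was longer than 55 nt, and 3'-55 with its last A would exceed that length. The table also holds only called tRFs, so forms absent from it may exist. How far length and selection set this link was not tested. Together, the 5 incomplete fragments made up 9.09% to 20.03% of the long fragments in CD and 6.30% to 17.4% in LP. For the start at base 24, where both forms were listed, the form without the last A made up 1.68% to 4.37% of the counts in CD, and 10.0%, 0.632%, 4.13% and 2.80% in LP 1 to LP 4. The value in LP 1 rested on 2 of 20 counts (95% confidence interval 2.79% to 30.1%, Wilson). For the start at base 22, the form with a single C of the tail made up 13.8% to 20.5% of the counts in CD and 5.0% to 33.3% in LP, against the form with CC, with the highest value being 1 of 3 counts in LP 1. These shares overlapped between the groups in each case. CD libraries also differed from each other beyond counting error, as the incomplete forms made up 20.03% in CD 4 (95% confidence interval 17.9% to 22.4%, Wilson) and 9.09% in CD 5 (7.49% to 11%).

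Depth and long fragments of other tRNAs were set beside these values. The counts of the table, which are not library depths, summed to 26166 to 34775 in CD and to 12556 to 40166 in LP, and tRNA-His-GTG took 3.31% to 6.23% of them in CD and 1.12%, 5.21%, 2.51% and 3.28% in LP 1 to LP 4. The other 25 tRFs over 40 nt summed to 3512 to 10088 normalized read counts in CD and to 1248, 1366, 2750 and 2581 in LP 1 to LP 4. In LP 2 the 3' part of tRNA-His-GTG was the highest of the LP libraries, while only LP 1 had fewer of the other long tRFs. The part of depth in these differences was not tested. Whether fewer cells of a type or less RNA per cell lay behind a level cannot be told apart in these whole islets, and the islet label could not be checked against marker genes in a table of tRFs. Littermates may be among the rats, as no source used here says otherwise, so the p-values cover only the spread between these samples.

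Set against tRFs of similar length, the long 3' fragments of tRNA-His-GTG were not unusual in direction. Among the other tRFs over 40 nt, 21 of 22 tested were lower and 1 higher, with a median log2 fold change of -2.01 against -2.02 for the 9 tested of tRNA-His-GTG. In tail they differed, as 5 of the 10 long fragments of tRNA-His-GTG carried a complete CCA, against 4 of the other 25. The 10 were all of the 3' part, while the other 25 were not sorted by part and include mitochondrial tRFs, so the compared sets are unlike. tRNA-Gly-CCC, for one, gave CCA-ended tRFs of 52, 53 and 54 nt. No test was made of this difference.

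In the middle range of length, fragments of tRNA-His-GTG of equal length differed in direction. 5'-31 and 3'-31 have the same length, and the first was higher in LP (log2 fold change 1.31) and the second lower (-2.48). Of the other tRFs of 25 to 40 nt without CCA, 47 of 59 were higher and 12 lower, and of the other tested ones with CCA 16 of 19 were higher and 3 lower. Fragments with a CCA end that fell in this range therefore numbered 5, and 3'-30 and 3'-31 were 2 of them. The other 3 came from tRNA-Arg-TCT, tRNA-Lys-CTT and tRNA-Gly-GCC and measured 29 to 31 nt, while the 17 with a fold change above 0, counted without the filter, measured 33 to 40 nt. CCA-ended tRFs shorter than 25 nt also had log2 fold changes below 0 without the filter, except a 20-nt tRF of tRNA-Arg-TCT (1.97). Falls of short CCA-ended tRFs were thus common in the table.

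**Figure D4:**
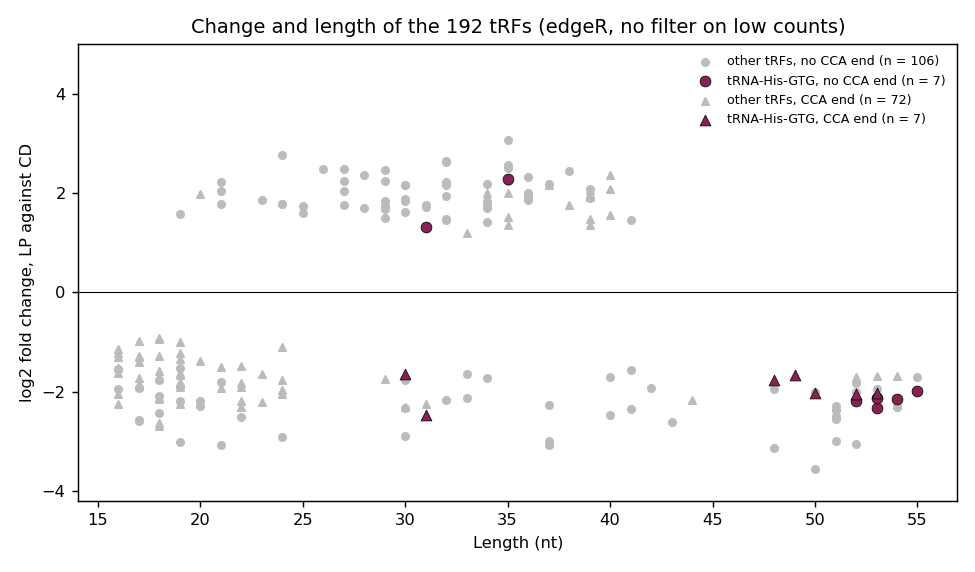
Log2 fold change of LP against CD (edgeR, without the filter on low counts) against length in nt for all 192 tRFs, with tRNA-His-GTG in purple and tRFs ending in CCA as triangles. The 2 purple points above 0 are 5'-31 and 5'-35, the purple triangles below 0 at 30 and 31 nt are the short 3' fragments, and the 10 purple points at 48 to 55 nt are the long 3' fragments.

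Of the nuclear tRNAs whose first anticodon base can carry queuosine, only tRNA-His-GTG and tRNA-Asp-GTC had tRFs in the table. None were listed for nuclear tRNA-Asn-GTT or tRNA-Tyr-GTA, and mitochondrial tRNAs were not counted. Of the 18 tested tRFs of tRNA-Asp-GTC, 14 were higher and 4 lower, with a median log2 fold change of 1.80, and none of its 20 tRFs ended in CCA. By length, 14 of its 17 tRFs of 25 to 40 nt were higher and 3 lower. Its 3 tRFs over 40 nt all had a log2 fold change below 0 without the filter, as did the 10 long 3' fragments of tRNA-His-GTG. The tRNAs from which abundant 5' fragments are well known, other than tRNA-His-GTG, had 43 higher and 19 lower of 63 tested and a median of 1.76. tRNA-His-GTG had 2 higher and 11 lower with a median of -2.02, and all tRFs tested had 75 higher and 102 lower with a median of -1.49. The lists of other tRNAs were not split by part, and 14 of the 66 tRFs of the known 5' hosts ended in CCA. They therefore differ from tRNA-His-GTG in the lengths and parts they hold, and are described by their counts only.

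The fragments of one part followed each other across the 9 libraries. The Pearson correlation of log2 normalized read counts (pseudocount of 1) was 0.93 between the 5' fragments, 0.94 between the short 3' fragments, and 0.78 to 0.98, with a median of 0.91, over the 45 pairs of long 3' fragments. Between long and short 3' fragments it was 0.65 to 0.91. The points share the libraries, their depth and the difference between the groups, and overlapping fragments share sequence, so these are descriptions. Outside tRNA-His-GTG, the tRFs most like 5'-35 in pattern were a 34-nt tRF of tRNA-Gly-GCC (r = 0.93), a 29-nt tRF of tRNA-Glu-TTC (0.93) and a 31-nt tRF that both tRNA-Glu-CTC and tRNA-Glu-TTC can give (0.93), all without CCA. For 5'-31 they were a 24-nt tRF of tRNA-Glu-CTC and tRNA-Glu-TTC (0.97), a 40-nt tRF of tRNA-Arg-TCG that ends in CCA (0.95) and a 36-nt tRF of tRNA-Asp-GTC (0.92). The pattern of 3'-53c was most like that of CCA-ended tRFs of tRNA-Ala-AGC (17 nt, 0.95) and tRNA-Gly-GCC (18 nt, 0.94), and of a 30-nt tRF of tRNA-Gly-TCC without CCA (0.94).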

How the data were processed

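Small RNA of islets from 5 CD and 4 LP rats was sequenced, with groups and replicate numbers taken from the sample titles. The authors annotated tRFs against nuclear and mitochondrial tRNA collections, kept those with 2 or more reads in single samples, and tested the diets with DESeq2. Aligner, build and any use of molecular tags were not given in the sources used here. Columns of deposited data give unscaled whole read counts and a second set of values that the authors headed as normalized counts. These deposited values are on a log2 scale, since DESeq2's variance-stabilising transformation fitted them with residuals of at most 5.72e-05, which also gave the authors' size factors (0.625 to 1.80). The table's columns of fold change, adjusted p and direction were not used.

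The 255 rows were collapsed to 192 sequences. Parts were assigned by matching fragments to the tRNA that they spell. Counts were fitted over the whole table with edgeR 4.0.16 (R 4.3.3) after a filter with a minimum count of 10, which left 181 tRFs and 13 of the 14, and p-values were adjusted by Benjamini-Hochberg over those. SE values come from the fold change and its F statistic, and intervals from scipy 1.17.1. DESeq2 1.42.0 was an alternative, and the fit was tested on simulated data. In those data most tRFs were unchanged and the scaling was known, unlike here, so they do not test the choice of scaling. Because the rows had been selected on these samples, adjusted p-values are too low and sizes tend to be too large. The members, lists and scaling were chosen with earlier results of these data known. All 14 tRFs were to be named. Replicate numbers were not used to pair the libraries in the main fit, and the closing section gives a fit with them as a block.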

Additional observations from a re-analysis of the deposited data

Results flagged for a closer look

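Levels of the 14 tRFs, the sums of both parts and their ratio were searched in each group for a sample far from the rest on a log scale, 34 sets of values in all, of which chance would mark about 1.7. In 6 sets a single library stood out, and the cause was not tested. The sets are not separate, since the sums and the ratio hold the members, and fragments of one part follow each other. In CD, 3'-53c alone made up 48.8% to 64.0% of the 3' part. The 6 can therefore not be read as an excess over 1.7. CD 1 was the highest CD library for 3'-53c, at 1690 normalized read counts against 614 to 756 (a gap of 0.794 of the range), for 3'-49, at 136 against 62.6 to 74.4 (0.777), and for the summed 3' part, at 2639 against 1136 to 1383 (0.767). LP 1 was the lowest LP library for 3'-53b, at 2.74 against 18.9 to 21.1 (0.946), and for 3'-54, at 2.74 against 13.1 to 16.1 (0.882), with 2 raw counts each. LP 4 was the highest for the summed 5' end, at 269 against 111.0 to 122 (0.897).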

How the results depend on the processing

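Over the table, 102 tRFs were lower in LP, and 56 under TMM, 26 with summed counts and 61 with DESeq2 and size factors of the table. For tRNA-His-GTG, 11 were lower, and 7 under TMM and 3 with summed counts. Both rises passed in each fit. Dividing the 14 by CCA end in place of position moved 5 long fragments of the 3' part into the class of the 5' end, whose summed log2 difference was then -0.20 instead of 1.75, and the difference in ratio was 2.11 instead of 4.06. Leaving out single libraries gave 75 higher and 94 to 110 lower over the table, and 2 higher and 10 to 12 lower for tRNA-His-GTG. Each time, all tested fragments of its 3' part were called. These were 10 without a CD library and 12 without an LP library. The log2 differences were 1.45 to 1.87 for the 5' end, -2.74 to -1.69 for the 3' part and 3.56 to 4.57 for their ratio. The replicate block (CD 1 to 4, LP 1 to 4) gave 75 higher and 94 lower, with 2 higher and 10 lower of 12 tested for tRNA-His-GTG. The deviations of same-numbered libraries correlated at -0.40, 0.08, 0.06 and 0.01. These values gave no sign of pairing, but they cannot exclude a shared litter or batch, since differently numbered libraries were not compared. When the fold minimum or the filter was dropped, or DESeq2 was run with the size factors of the authors, the counts stayed within 1.5 times. Few raw counts in LP 1 limit the rarer long fragments.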
